A study of Mus musculus domesticus with 18 samples.

Results

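Liver RNA of the 3 mice trapped at location B of the low altitude city was compared with that of the 6 mice trapped at locations A and C of the same city. These 9 animals belong to a series of 18 wild male house mice (Mus musculus domesticus). Of these, 9 were caught in La Paz, Bolivia, at 3600 m and 9 in Lima, Peru, at 100 m, with 3 mice from each of 3 locations per city. Each mouse gave 1 Affymetrix expression array. The strain field of the labels reads C57BL/6J for every animal, although the titles and the design text describe wild-caught mice, and the latter were followed. No treatment, age or diet was given. The letters A, B and C name locations within a city, so location B in Lima has no relation to location B in La Paz. The 3 B mice were chosen by their location label and not by any measured value.

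The liver secretes most plasma proteins, and during infection or injury it raises a group of them, the acute phase proteins, when interleukin 1, interleukin 6 and related cytokines reach hepatocytes. Serum amyloid A proteins are classical members of this group. Saa3 is the member that macrophages and other cells outside the hepatocyte lineage also make in mice. Kupffer cells are the resident macrophages of the liver, and interferons induce a separate antiviral set of genes in almost every cell type.

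All values are log2 levels of probe sets, and differences between groups are log2 differences, so that 1 stands for a 2-fold difference. Every probe set assigned to a single gene was tested with limma, 34945 in all, and a probe set passed the test at a Benjamini-Hochberg adjusted p under 0.05 over all of them. Array medians of the 9 low altitude mice lay between 5.65 and 5.71. On average the B medians did not differ from the other 6 (exact two-sided permutation p = 0.667), but B2 had the highest and B3 the lowest. A sign of RNA integrity, the excess of the 3 prime over the 5 prime Actb control probe set, lay between 0.98 and 1.45 in the 9 mice (p = 0.94 by the same exact test, whose smallest possible p is 0.0119). The 16 hepatocyte markers, albumin among them, averaged between 13.33 and 13.74 in each of the 9 livers. Arrays of B had a mean correlation of 0.9819 with each other, below the 0.9841 with A and the 0.9843 with C. Within A and within C it was 0.9895 and 0.9865. The B mice were thus less alike than those of A or C. Precision was limited by the number of arrays: the typical (median) standard error for B minus A and C was 0.13.

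A pair of livers stood apart from the other 7 in sex-biased genes, 1 in group B and 1 in the comparison group. Female-biased liver genes averaged 9.27 in mouse B2 and 9.93 in mouse A1, against 5.96 to 7.08 in the other low altitude mice. Male-biased genes averaged 8.77 and 8.46 in these mice, against 10.20 to 11.38. Cyp2b13, a female-biased cytochrome P450, was at 11.62 in B2 and 10.97 in A1 but between 5.19 and 5.69 elsewhere. Hsd3b5, a male-biased steroid dehydrogenase, was at 4.82 and 4.96 against 9.13 to 11.59. Levels of the Y-linked gene Eif2s3y ran from 7.57 to 7.99 over the 9 mice, with B2 and A1 inside that range. The main results are given with and without this pair.

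The test passed 5 probe sets, 0.0143% of those tested, each for a different gene. Saa3, Crtap and 1 of the 2 Xaf1 probe sets were higher in B (3 probe sets, 0.00858%). Nek3 and 1 of the 8 probe sets of 2610005L07Rik were lower than the mean of A and C (2 probe sets, 0.00572%), the latter mainly because A was high. Saa3, Crtap and Nek3 were each tested at 1 probe set, so their differences could not be compared with another probe set of the gene. At an unadjusted p under 0.05 there were 1926 probe sets, 5.51% of all, and 158 probe sets differed by at least 1 in either direction. Mouse B2 moved the count most: 24 probe sets passed without it (0.0687%), against 2 without B1, 3 without B3, 8 without A1 and 8 without C1. Without both B2 and A1, 17 passed (0.0486%), and 4 of the 5 named above were among them. Without this pair the difference was 2.48 for Xaf1, 2.23 for Crtap, -0.68 for Nek3 and -1.07 for 2610005L07Rik (adjusted p from 0.00547 to 0.046). The gene lost was Saa3, at 2.63 with an adjusted p of 0.052. These p-values measure the spread between mice of a location. Location B is a single trapping site, so its habitat, kinship among its mice and anything else shared there cannot be told apart.

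**Figure D1:**
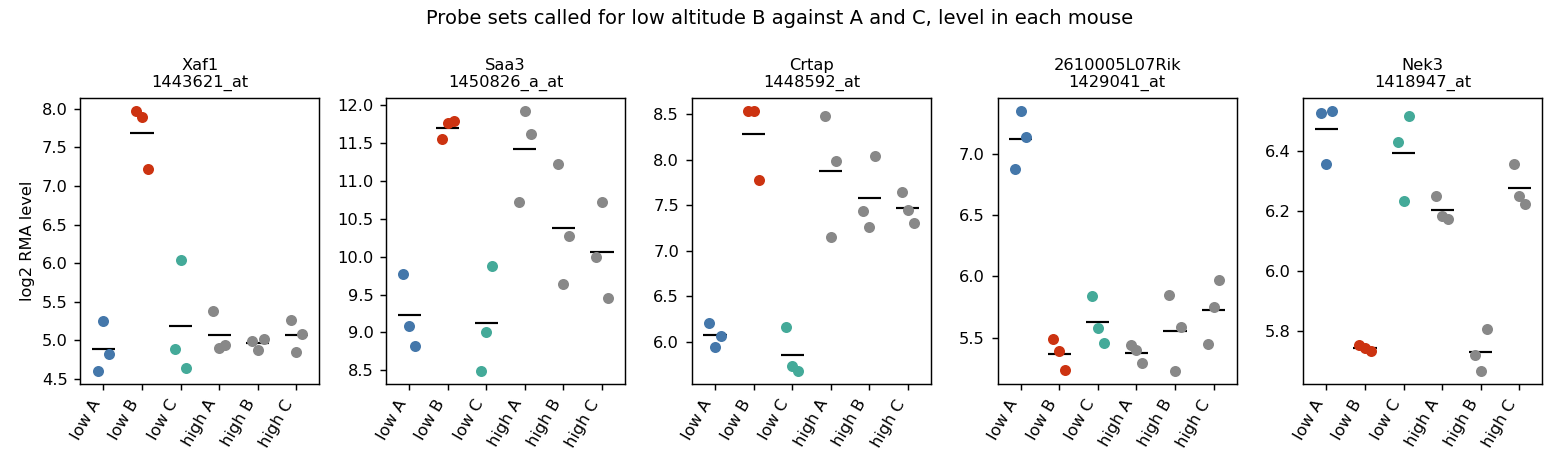
Log2 RMA level (vertical axis) of the 5 probe sets that passed the test for location B against A and C, in each of the 18 mice by location and altitude, with a bar at each location mean. The B mice of low altitude, in red, lie above or below all A and C mice except for 2610005L07Rik, where the A mice alone are high; high altitude mice are grey.

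Saa3, the serum amyloid A gene made outside hepatocytes as well as within them, was raised in B. The 3 B mice had Saa3 levels of 11.56, 11.77 and 11.79. The A mice had 9.77, 9.09 and 8.82, and the C mice 8.49, 9.002 and 9.88. All B mice lay above all 6 others, as they did for 1.22% of probe sets, and the B mice were much closer to each other (SD 0.13, n = 3) than the A and C mice were (SD 0.54, n = 6). The difference was 2.53 ± 0.37 (SE), or 5.78-fold, with a limma adjusted p of 0.0282. It was 2.48 against A and 2.58 against C. High altitude mice had Saa3 between 9.46 and 11.92, so the B level was not outside the range of the series. The size of the Saa3 difference held between 2.37 and 2.72 in every alternative, but its adjusted p left the threshold without A2 (0.079), A3 (0.0717), B1 (0.106), B2 (0.0543), B3 (0.199) or C2 (0.0582).

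The acute phase list held 27 measured genes, each taken at its brightest probe set. Of these, 23 were higher in B and 4 lower, with a median difference of 0.29, whereas 50.2% of all 18193 genes were higher with a median of 0.000698. Saa3 was the only member past the test, which 0.0165% of all genes passed at their brightest probe set, and 9 of the 27 had an unadjusted p under 0.05, against 5.55% of all genes. Lcn2, a neutrophil and hepatocyte protein that withholds iron from bacteria, was at 12.97, 11.22 and 12.24 in B. It reached 8.66 to 10.89 in the other mice, with a median of 9.70. All 3 B mice were thus higher in Lcn2, by 2.25 ± 0.49 (SE, adjusted p = 0.325). Steap4, a metalloreductase induced by inflammation, was at 11.19, 11.14 and 11.36 in B and between 10.28 and 10.48 in A and C, a difference of 0.83 ± 0.24 (adjusted p = 0.648). Saa3, Lcn2 and Steap4 were the 3 members with no overlap between the groups, which 1.38% of all genes showed in this direction.

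Orm2, an orosomucoid that binds drugs and lipids in plasma, had the largest difference of the list but a wide spread. Its B levels were 13.46, 9.47 and 11.98, against 6.15 to 9.87 in A and C. Mouse B2 lay within the range of the others, and the difference of 3.32 ± 0.82 had an adjusted p of 0.465. Without B2 and A1 it was 4.69, with an adjusted p of 0.052. The remaining serum amyloid genes differed by smaller amounts. Saa1 differed by 0.25 ± 0.32, Saa2 by 0.44 ± 0.42 and Saa4, the constitutive member, by -0.02 ± 0.22. The B mice were split for Saa1 and Saa2, with B1 and B3 above all 6 A and C mice and B2 below them. Saa1 was at 14.52, 13.21 and 14.48 in B1, B2 and B3, against 13.30 to 14.26. Saa2 was at 13.90, 12.10 and 13.82, against 12.22 to 13.46. Saa4 and Saa1 are the next measured genes to Saa3 along the chromosome, and Saal1 on its other side differed by -0.36. Abundant acute phase proteins were nearly level: haptoglobin (Hp) differed by 0.06, C-reactive protein (Crp) by 0.10 and fibrinogen gamma (Fgg) by -0.02.

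As a mean over the 27 genes, the acute phase list stood at 12.75 in B1 and 12.72 in B3, above all 6 mice of A and C, which lay between 11.77 and 12.14. Mouse B2, at 12.01, lay among those 6. B2 was one of the mice that stood apart in sex-biased genes, and the part of that in its acute phase level was not tested. The number of acute phase members higher in B was 26 without B2 and A1, and stayed between 19 and 26 in all alternatives.

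Genes for the cytokines and receptors upstream of this response showed smaller differences. Of 25 measured, 18 were higher in B and 7 lower, with a median of 0.11. None passed the test, and 4 had an unadjusted p under 0.05, against 5.55% of all genes. Tlr2, a receptor for bacterial lipoproteins, differed by 0.71 ± 0.24 (adjusted p = 0.712). Il1r1, the signalling receptor of interleukin 1, differed by 0.62 and its partner Il1rap by -0.44, while the NF-kappa-B cofactor Nfkbiz differed by 0.57. The cytokine gene Il6 itself was at a low level in all mice and differed by 0.05, and the transcription factor Stat3 by 0.27. As a mean over the list, the B mice lay at 8.04 to 8.08 and the other mice at 7.85 to 7.98.

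**Figure D2:**
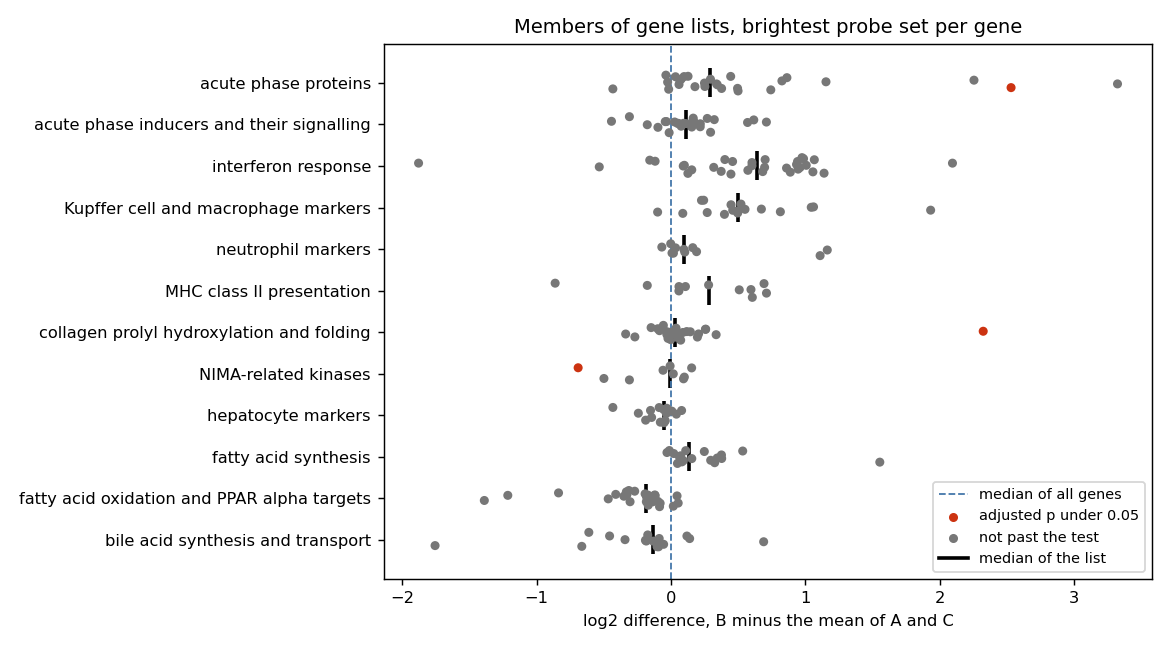
Log2 difference, B minus the mean of A and C (horizontal axis), of each measured member of 12 gene lists, each gene at its brightest probe set. Black bars are list medians, the dashed line is the median of all genes, and red points passed the test: Saa3, Crtap and Nek3.

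Kupffer cell and macrophage markers were higher in B almost throughout. Of 17 markers, 16 were higher and 1 lower, with a median of 0.50, and 11 had an unadjusted p under 0.05, but none passed the adjusted test. Of all genes, 50.2% were higher in B and 5.55% had an unadjusted p under 0.05. Marco, a scavenger receptor of tissue macrophages, was at 7.76, 9.66 and 9.94 in B and between 6.70 and 7.73 in the other 6 mice, with a median of 7.17. The B mice were all higher, B1 by little, and the difference was 1.93 ± 0.49 (adjusted p = 0.481). Cd5l, a lipid-regulating protein secreted by macrophages, was at 11.21, 11.32 and 11.23 against 10.08 to 10.88, a difference of 0.67 ± 0.22. Fcgr1, the high-affinity IgG receptor, differed by 0.81, Adgre1, which encodes F4/80, by 0.55, and Cx3cr1 by 0.23, also without overlap. Of all genes, 1.38% were higher in B without overlap.

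Markers that define Kupffer cells more narrowly differed in the same direction but overlapped. Clec4f, a lectin made by Kupffer cells, was 0.46 ± 0.18 higher and Timd4, a receptor for dying cells, 1.06 ± 0.38 higher. The complement genes C1qa, C1qb and C1qc, which macrophages supply, differed by 0.52, 0.40 and 0.50. Mrc1, shared with sinusoidal endothelium, was the member below 0, at -0.10. The mean over the 17 markers was 8.63, 8.70 and 8.87 in B, 8.52, 8.32 and 8.18 in A, and 8.05, 7.92 and 7.998 in C. All B mice were above the other 6, and the A mice were above the C mice. The 9 La Paz mice averaged 8.61 over these markers, against 8.73 for the 3 B mice. Without B2 and A1 all 17 markers were higher in B. These are whole-tissue arrays, so more cells of a type and more RNA per cell cannot be told apart. The Kupffer markers were higher in the same group as Saa3 and the acute phase list, and their part in those differences was not tested.

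Other immune markers differed less. Among 11 neutrophil markers, 9 were higher and 2 lower, with a median of 0.10. S100a9 and S100a8, the calprotectin subunits, differed by 1.16 ± 0.38 and 1.11 ± 0.45, with B2 inside the range of the A and C mice for both. Markers of neutrophil granules were nearly level, at 0.01 for Ltf, -0.07 for Mpo and 0.19 for Elane. Of 19 T and NK cell markers, 16 were higher with a median of 0.10. Their mean was 5.307, 5.898 and 5.467 in B1, B2 and B3. In A and C it lay between 5.313 and 5.485, so only B2 was above those mice. Of 13 B and plasma cell markers 5 were higher with a median of -0.02. None of these lists held a gene past the test, and at an unadjusted p under 0.05 they held 2, 0 and 1 genes, against 5.55% of all genes.

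The class II antigen presentation list was split. Ctss, the protease that trims the invariant chain, was at 10.31, 10.44 and 10.42 in B and 9.21 to 10.15 in A and C, 0.61 ± 0.21 higher without overlap (adjusted p = 0.733). H2-Ea, a class II alpha chain, went the other way. Its B levels were 8.06, 7.94 and 8.28, below the 8.40 to 9.32 of the other 6 mice, a difference of -0.86 ± 0.38 (adjusted p = 0.874), and 0.967% of all genes were below without overlap. Cd74, H2-Ab1 and H2-Aa differed by 0.71, 0.69 and 0.51, with B2 highest of the 9 mice for each. In all, 9 of 11 members were higher in B, with a median of 0.28. Ctss and H2-Ea were the 2 with an unadjusted p under 0.05, against 5.55% of all genes. A lack of overlap in the direction of Ctss was seen in 1.38% of all genes.

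**Figure D3:**
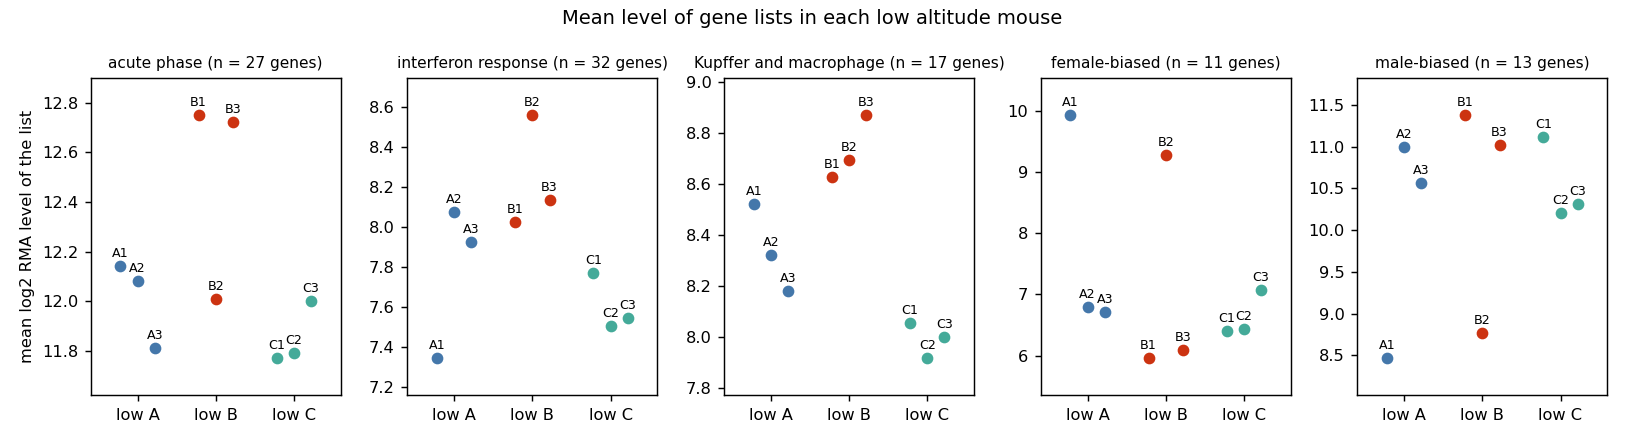
Mean log2 RMA level of 5 gene lists (vertical axis) in each of the 9 low altitude mice, labelled by location and mouse number. For the Kupffer and macrophage list all B mice lie above the other 6, for the acute phase list B2 lies among them, and in the sex-biased lists A1 and B2 stand apart.

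Xaf1, an interferon-induced gene that opposes inhibitors of apoptosis, had the largest change past the test, but at 1 of its 2 probe sets. At the dimmer one, 1443621_at, the B mice had 7.97, 7.89 and 7.22. The A mice had 4.60, 5.26 and 4.82, and the C mice 4.89, 6.03 and 4.64. All 9 high altitude mice lay between 4.86 and 5.37, so the 3 B mice were above every other mouse of the series. The difference was 2.65 ± 0.25 (SE), 6.28-fold, with an adjusted p of 0.000328. The brighter Xaf1 probe set, 1443698_at, gave 6.65, 8.13 and 7.23 in B against 7.49 to 8.27 in the others, a difference of -0.53 ± 0.40 (adjusted p = 1.00). The array thus gave no single direction for Xaf1. The named genes next to Xaf1, Slc13a5, 1700051A21Rik, Tekt1 and Smtnl2, differed by 0.38, 0.12, -0.05 and 0.04.

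Interferon-induced genes as a list were mostly higher in B. Of 32 measured, 28 were higher and 4 lower, with a median of 0.64. None passed the test at its brightest probe set, and 10 had an unadjusted p under 0.05. Over all genes the shares were 50.2% higher in B and 5.55% at an unadjusted p under 0.05. Bst2, or tetherin, which holds budding viruses at the cell surface, was at 10.82, 10.89 and 10.79 in B and between 9.77 and 10.22 in A and C. It was higher in every B mouse, by 0.89 ± 0.21 (adjusted p = 0.43). Irf7, the master regulator of type I interferon production, was at 8.73, 8.71 and 8.55, against 7.002 to 8.43, a difference of 1.14 ± 0.44 (adjusted p = 0.808). Psmb8, Oasl2, Ddx58 and Tap1, which act in the immunoproteasome, RNA sensing and peptide transport, were the other members without overlap, and differed by 0.86, 0.95, 0.40 and 0.60. A lack of overlap in this direction was seen in 1.38% of all genes.

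Members of this list did not share an order across the mice. Cxcl9, a chemokine induced by interferon gamma, was at 10.94 and 11.14 in B2 and B3 but 7.88 in B1, and the difference of 2.09 ± 0.78 did not pass. The antiviral GTPase genes Mx1 and Mx2 differed in opposite directions, by 0.57 ± 0.19 and -1.88 ± 0.72. Mx2 was at 7.32, 6.69 and 6.75 in B and between 8.91 and 9.59 in 5 of the other mice, with A1 at 6.25. The mean over the interferon list was 8.03, 8.56 and 8.14 in B, 7.34, 8.08 and 7.92 in A, and 7.77, 7.51 and 7.55 in C. B2 was the highest of the 9 mice and A1 the lowest, and B1 overlapped with A2. The 9 La Paz mice averaged 8.21 over the list, against 8.24 for the 3 B mice. Without B2 and A1, 25 of the 32 genes were higher in B.

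Crtap was raised in B against its Lima neighbours, but it was the A and C mice that stood out from the series. CRTAP forms a complex with prolyl 3-hydroxylase 1 and cyclophilin B that modifies collagen chains in the endoplasmic reticulum. Its B levels were 8.54, 8.54 and 7.78. The A mice had 6.20, 5.95 and 6.06, and the C mice 6.17, 5.73 and 5.67. The groups were apart by 2.32 ± 0.25 (SE), 5.01-fold, with an adjusted p of 0.00111. The 9 high altitude mice had Crtap between 7.15 and 8.48, with location means of 7.87, 7.58 and 7.47. B1 and B2 lay just above the highest La Paz mouse and B3 within the La Paz range, and the 6 A and C mice were the lowest of the 18. Crtap stayed past the test in each of 23 alternatives, with adjusted p between 0.000243 and 0.0274.

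The partners of Crtap were nearly level. P3h1, which encodes prolyl 3-hydroxylase 1, differed by 0.09 ± 0.13 and Ppib, which encodes cyclophilin B, by 0.06 ± 0.14. Of 27 genes for collagens and their modifying enzymes, 15 were higher in B and 12 lower, with a median of 0.03, and Crtap was the member past the test. Bmp1, a procollagen protease, and Plod1, a lysyl hydroxylase, differed by -0.27 ± 0.12 and -0.34 ± 0.17. Serpinh1, a collagen chaperone, differed by 0.34 ± 0.17, and Col1a1 and Col3a1 by 0.03 and 0.00. Among the named genes nearest to Crtap, Glb1, which encodes lysosomal beta-galactosidase, differed by 0.58 ± 0.20 and Tmppe by 0.64 ± 0.18. On its other side the nearest gene, 4930520O04Rik, differed by 0.09 and the next, 4921528I07Rik, by 0.39. None of these neighbours passed the test.

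Nek3, a kinase of the NIMA family that acts in the cytoplasm and in prolactin receptor signalling, was lower in B by a small but tight margin. The B mice had Nek3 levels of 5.75, 5.74 and 5.73. Those of the A mice were 6.53, 6.36 and 6.53, and those of the C mice 6.43, 6.23 and 6.52. The B mice lay below all 6 others, as for 1.07% of probe sets, with an SD of 0.0093 (n = 3). The level at the Nek3 probe set was lower by 0.69 with an SE of 0.09 (1.61-fold, limma adjusted p = 0.00732). The mean at high altitude location B was 5.73, and at high A and C it was 6.20 and 6.28. A low Nek3 level was therefore found at 2 of the 6 locations of the series, 1 in each city. The call was lost without B1 (adjusted p = 0.0768) or B3 (0.0571), with little change in the size of the difference.

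Other NIMA kinases showed no common direction, with 4 of 9 higher and 5 lower in B and a median of -0.01. Nek4 and Nek2 differed by -0.31 ± 0.22 and -0.50 ± 0.40, and Nek7 by 0.15. The neighbouring gene Nek5, which lies next to Nek3, differed by 0.10, and Alg11, Ckap2 and Vps36 by -0.32, -0.43 and -0.17. Nek1 and Nek10 were not analysed here. Over the 5 genes that passed, 20 neighbouring genes were measured and none passed the test. Of the 20, 8 had an unadjusted p under 0.05, against 5.55% of all genes. Differences of the 20 ran from -0.45 to 0.64.

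2610005L07Rik, a locus known by a provisional symbol, passed the test mainly through location A. At the probe set 1429041_at the location means of A, B and C were 7.12, 5.37 and 5.63. The B mice had 5.49, 5.39 and 5.24, the A mice 6.88, 7.35 and 7.14, and the C mice 5.84, 5.58 and 5.46. The B and C mice overlapped, and only the A mice stood apart from the rest of the series, whose high altitude members lay between 5.23 and 5.97. The difference of -1.003 ± 0.15 (adjusted p = 0.0282) consisted of -1.75 against A and -0.26 against C. The other 7 probe sets of 2610005L07Rik differed by -0.62 to 0.13, and none passed, 2 of them with an unadjusted p under 0.05. Its call was lost in 11 of 23 alternatives, among them leaving out A2 (adjusted p = 0.079), A3 (0.0717), B1 (0.105), B3 (0.208), C1 (0.0523) or C2 (0.0582).

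**Figure D4:**
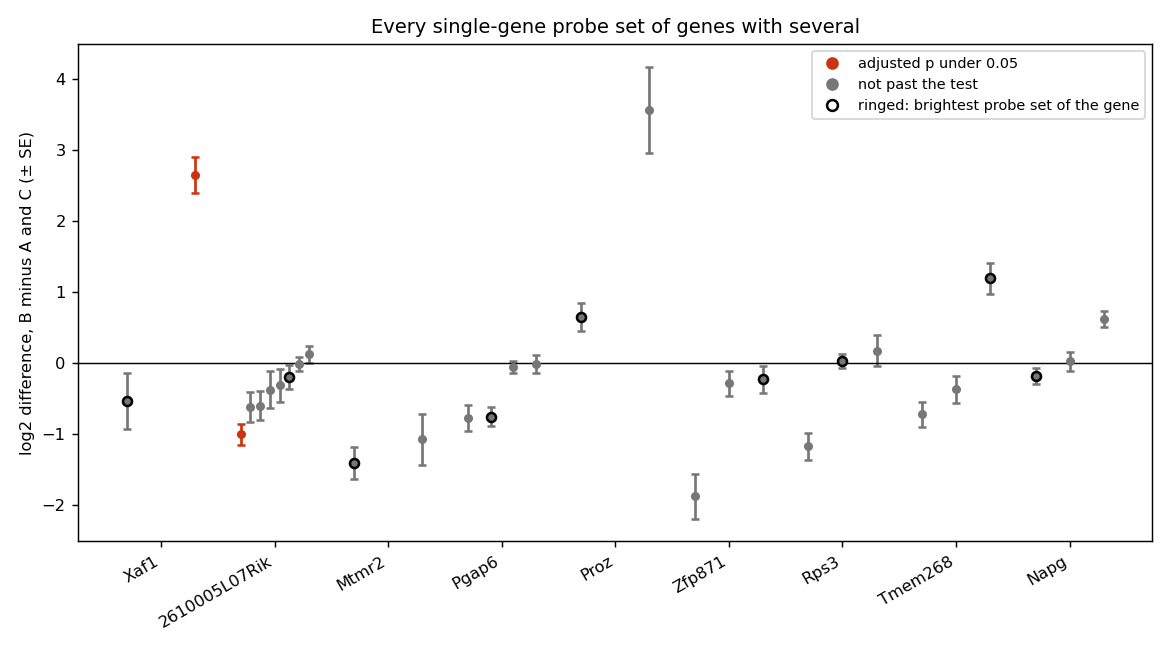
Log2 difference, B minus the mean of A and C (vertical axis, bars are 1 SE), at every single-gene probe set of 9 genes that have several. Red points passed the test and ringed points are the brightest probe set of a gene; Xaf1, 2610005L07Rik, Tmem268, Rps3 and Napg have probe sets on both sides of 0.

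A further 9 genes had an adjusted p between 0.05 and 0.15 and did not pass with all mice; they were named after their values were seen, and 6 of them passed under some alternative. Proz, the vitamin K-dependent protein Z of the coagulation system, had the greatest of these differences. At its dimmer probe set the B mice had 9.41, 9.27 and 9.53 and the A and C mice 5.37 to 6.12, with a median of 5.90. The groups were 3.57 ± 0.61 apart, 11.9-fold, with an adjusted p of 0.0827. The same difference passed with the 9 low altitude arrays alone (adjusted p = 2.62e-05), with A and C pooled (1.25e-06) and with array weights (0.0168). The pooled fit took location as a random block, with a correlation of -0.114. A negative value narrows the standard error, so that fit made no allowance for what mice of a location share. The brighter Proz probe set gave 9.46, 9.70 and 10.01 against 8.69 to 9.41, a difference of 0.65 ± 0.20 in the same direction. High altitude location C had a mean of 10.06 at the dimmer probe set. At high altitude location B, mouse B1 was at 9.30 but B2 and B3 were at 5.68 and 4.84. A high Proz level thus appeared in all mice of a second location and in 1 mouse of another.

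Cyp17a1, the steroid 17-hydroxylase and lyase, was lower in B. The B mice had 7.61, 9.52 and 9.34, and the other 6 mice 10.92 to 12.05, with a median of 11.47. B1 was the lowest, and all B mice lay below the others, as for 1.07% of probe sets. The difference of -2.68 ± 0.46 had a limma adjusted p of 0.0827. Cyp17a1 belonged to the female-biased list, and B2 and A1 had the highest Cyp17a1 levels of their locations. Without B2 the difference was -3.02 with an adjusted p of 0.0446, and without B2 and A1 it was -2.89 with an adjusted p of 0.0846, so that it again did not pass. It passed with array weights (0.0168), with A and C pooled (0.0178) and with the mouse number as a block (0.0345). The pooled fit has the negative location correlation given for Proz, and the mouse numbers did not pair the mice. Cyp17a1 passed in 4 alternatives and did not pass in 19.

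For the phosphoinositide phosphatase gene Mtmr2 the A mice were high rather than the B mice low. Mean Mtmr2 levels for A, B and C were 7.04, 4.85 and 5.47, and those at high altitude between 4.45 and 4.48, with a B minus A and C difference of -1.40 (adjusted p = 0.064). Mtmr2 passed without B2 (-1.75, adjusted p = 0.00284) and without B2 and A1 (-1.67, adjusted p = 0.00547). For Pgap6 the A mice were again high among the Lima locations, with means of 8.83, 7.35 and 7.37 (difference -0.75, adjusted p = 0.129). High altitude location B was high as well, at 8.34, against 7.61 and 7.36 at high altitude A and C. Zfp871 and Zfp654, both zinc finger genes, differed by -1.88 ± 0.31 and -0.55 ± 0.10 (limma adjusted p = 0.0677 and 0.12). Both were lower in B without overlap, as were 1.07% of probe sets. Zfp871 passed without B2 (-2.18, adjusted p = 0.0219) but not without B2 and A1 (-2.15, adjusted p = 0.052). The other Zfp871 probe sets gave -0.29 and -0.22. Rps3, a ribosomal protein gene, differed by -1.17 at a dim probe set but by 0.03 at its brightest. Tmem268 differed by 1.199 at 1 probe set and by -0.72 and -0.37 at the others, and Napg by 0.62, -0.19 and 0.03.

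Metabolic gene lists held no gene past the test for B, and their members leaned in different directions. Over all genes, 50.2% were higher in B and 5.55% had an unadjusted p under 0.05. Of 26 PPAR alpha targets and fatty acid oxidation genes, 3 were higher in B and 23 lower, with a median of -0.18 and 1 unadjusted p under 0.05. Hadhb, a subunit of the mitochondrial trifunctional protein, was at 10.98, 11.28 and 11.59 against 11.37 to 12.08, a difference of -0.41 ± 0.15 that overlapped (adjusted p = 0.789). Mouse B1 was the lowest B mouse for several members. Cyp4a14 was at 6.94 in B1, 11.78 in B2 and 12.75 in B3, and Vnn1 at 5.75, 9.52 and 8.62. Without B1, 11 of the 26 genes were higher in B. Leaving out C2 or C3 gave 5 and 1, and leaving out B2 and A1 gave 4. The list mean was 9.87 in B1 and 10.54 and 10.77 in B2 and B3, against 10.80 to 10.84 in A and 10.27 to 11.01 in C.

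Fatty acid synthesis genes leaned the other way, with 16 of 18 higher in B, a median of 0.13 and 2 unadjusted p under 0.05. Thrsp, which responds to thyroid hormone and carbohydrate and promotes lipogenesis, differed by 1.55 ± 0.73 with overlap. Fasn, the fatty acid synthase, and Scd1, the stearoyl-CoA desaturase, differed by 0.33 ± 0.48 and 0.38 ± 0.54. Among 17 genes of bile acid synthesis and transport, 3 were higher and 14 lower, with a median of -0.13 and 1 unadjusted p under 0.05. Cyp7a1, the rate-limiting enzyme of bile acid synthesis, was at 8.14, 8.37 and 8.81 in B, 11.32, 10.31 and 11.01 in A, and 10.54, 7.61 and 10.40 in C. Mouse C2 was lower than the B mice, and the difference of -1.75 ± 0.56 had an adjusted p of 0.71. Hepatocyte markers differed by -0.43 to 0.08, with 13 of 16 lower, a median of -0.05 and 0 unadjusted p under 0.05.

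Taken apart, A and C were not equivalent references. Against A alone 21 probe sets passed (0.0601%), 8 higher and 13 lower in B, and against C alone 2 passed (0.00572%), those of Xaf1 and Crtap. Between A and C themselves 17 passed (0.0486%), 12 higher in A. Of the 21 that separated B from A, 8 also separated C from A. These comparisons share their A, B or C mice. Abhd18, a gene of unclear function, had means of 4.44, 6.73 and 6.97 in A, B and C, and Ube2v2, a ubiquitin-conjugating enzyme variant, 4.44, 6.35 and 6.34. For both genes A was the low location, and all 3 high altitude means lay between 6.28 and 6.96. All 5 probe sets that passed for B against A and C also passed against A alone, and 2 of them against C alone. When each Lima location was set against the other pair, 24 probe sets passed for A, 5 for B and 0 for C (limma; at an unadjusted p under 0.05 these were 2511, 1926 and 2011). The same comparison among the La Paz locations passed 26 probe sets for A, 75 for B and 11 for C.

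Leaving out mouse B2 let further probe sets pass, chosen by that step to be ones where B2 differs from B1 and B3; their levels are given as a description. Without B2, 24 probe sets of 23 genes passed, 17 higher and 7 lower. B1 and B3 lay beyond all 6 A and C mice in 23 of these, and B2 did not lie there with them in 16 of the 23. Over all probe sets B1 and B3 lay beyond the 6 in 3082 (8.82%), and B2 did not in 2282 of those, so a B2 apart from B1 and B3 is no mark of the 24. Moxd1, a monooxygenase-like protein of the secretory pathway, was at 11.41 in B1 and 10.23 in B3 but 4.08 in B2. It was at 8.48 in C1 and between 3.82 and 4.14 in the other A and C mice. Ugt2b37, a glucuronosyltransferase, was at 9.09, 4.10 and 9.42 in B1, B2 and B3, against 4.04 to 6.36.

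Other genes that passed without B2 had several functions. B3galnt1, a glycosyltransferase of globoside synthesis, was at 7.23, 4.93 and 6.87 in the B mice and Dnase1l3, a nuclease that clears extracellular chromatin, at 5.55, 4.08 and 6.12. Lrp2, the endocytic receptor megalin, passed at 2 probe sets, by 1.73 and 0.72 without B2. Dkk4, a secreted Wnt antagonist, differed by 1.27. Gstm1, a glutathione transferase, ran the other way, at 12.24 and 11.95 in B1 and B3, 13.17 in B2 and 12.86 to 13.61 in A and C. With A1 left out as well as B2, 15 of the 24 still passed, and among the genes named here Moxd1 (adjusted p = 0.052), Dkk4 (0.052) and Gstm1 (0.0582) did not. B2 was the B mouse with a female-biased profile, and the part of that profile in these differences was not tested.

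**Figure D5:**
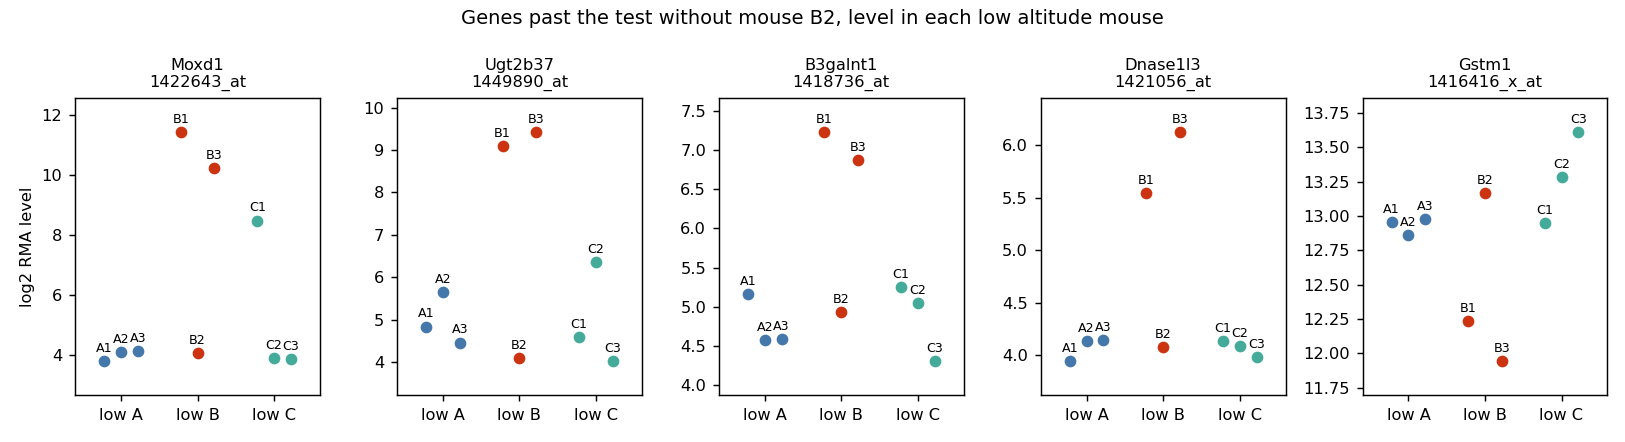
Log2 RMA level (vertical axis) of 5 genes that passed the test when mouse B2 was left out, in each of the 9 low altitude mice. B1 and B3 lie apart from the A and C mice while B2 lies among them; Moxd1 was also raised in C1, at 8.48.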

How the data were processed

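Per the labels, liver RNA was turned into biotinylated cRNA for Affymetrix arrays. The deposited log2 values cover 45101 probe sets and 18 mice. RMA and the affy package are credited from the submitters' processing notes, with versions not given there. The method subtracts background, equalises probe distributions and combines the probes of a set. Dim signals are thereby compressed, and levels can be compared within a probe set only. GEO's platform annotation named 1 gene for 34945 probe sets and several for 932; 9160 were unlisted and 64 were controls. Scan dates were not used here.

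Groups came from the sample titles, where "Bltitude" was read as altitude. In R 4.3.3, limma 3.58.1 fitted 6 location means over all 18 arrays (12 residual degrees of freedom, eBayes with a trend) and tested B minus the mean of A and C, two-sided. Mice of 1 location were treated as independent, and nothing in the labels says whether they were related. Gene lists, 38 in all with 12 described at length, used the brightest probe set of a gene by mean over all mice (18193 genes); 79 of 701 listed genes were not analysed here. Gene order came from RefSeq's table for GRCm38.p6, used for neighbours alone. Named genes are Saa3, Crtap and Nek3, up to 12 that passed per direction, and up to 4 with the smallest p per list. Members and lists were chosen with earlier results of these data known. Exact permutation tests over 84 splits served array measures. The procedure was tested on simulated data. Alternatives covered scaling, filters, probe set choice, weights, blocks, the reference location and leaving out each mouse. Figures were drawn with matplotlib 3.10.9.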

Additional observations from a re-analysis of the deposited data

Results flagged for a closer look

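A signal appeared in a probe set outside the comparison because no gene is named for it here. Probe set 1460084_at was 3.38 ± 0.31 (SE) higher in location B on the log2 scale, with a limma adjusted p of 0.000159 when all probe sets of the array were tested. The B mice had 6.72, 7.24 and 7.23, and the A and C mice lay between 3.26 and 4.22. At high altitude C1 had 5.54 and C3 4.46, and the other 7 mice lay between 3.29 and 3.71. Dixon's test was applied to 38 of the named genes. They were those with an adjusted p under 0.15 and leading list members with an unadjusted p under 0.05. In these 38 the 6 mice of A and C held 0 values far enough from the others to be singled out. Mx2, where A1 lay apart, and Moxd1, where C1 lay apart, were not among them. Groups of 3 mice were not tested that way.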

How the results depend on the processing

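The 5 probe sets that passed for B against A and C became 3 with 1 probe set per gene, 26 with array weights, 18 with A and C pooled and location as a random block (consensus correlation -0.114), 21 against A alone and 2 against C alone. The negative correlation narrows the standard errors of the pooled fit, so its count makes no allowance for what mice of a location share. The probe sets that passed numbered 17 without B2 and A1, an alternative added after seeing the data, and 2 to 24 when each mouse was left out in turn. For B against A the range over mice left out was 9 to 36, for B against C 0 to 9 and for A against C 7 to 23; the 9 low altitude arrays alone gave 8 for A against C. With the mouse number as a replicate block, B against C gave 4, and Saa3 (adjusted p = 0.104) and 2610005L07Rik (0.104) no longer passed. The numbers did not pair the mice: deviations of same-numbered mice correlated between -0.32 and 0.21. Nek3 did not pass with the 9 low altitude arrays alone (0.144) or against C alone (0.0702), nor Saa3 against C alone (0.113). The 3 fatty acid oxidation genes higher in B became 1 against A alone, 8 against C alone and 1 to 11 with a mouse left out. Directions reversed with 1 probe set per gene for Xaf1 (-0.53), Napg (-0.19) and Rps3 (0.031), and without B1 for Ugt2b38 (-0.043 to 1.17 over mice left out). Of 869 gene values, 811 kept direction and side of the threshold, 24 fell out of it, 30 came into it and 4 reversed. Members higher in B stayed between 25 and 29 for interferon and 14 and 17 for Kupffer lists. Causes were not tested. RMA compression limits dim probe sets such as Napg's.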

Other observations

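Targets of the xenobiotic receptors AHR, CAR and PXR had no common direction. Of 20 measured genes, 10 were higher in B and 10 lower, with a median of 0.02. An unadjusted p under 0.05 was found for 4 of them, against 5.55% of all genes, and none passed limma's adjusted test. Cyp2b10, the cytochrome P450 most responsive to CAR, was at 11.07, 9.65 and 11.02 in B. The C mice had 11.41, 8.41 and 8.97 and the A mice 8.09, 6.10 and 6.10. The difference of 2.40 ± 0.98 (SE, adjusted p = 0.842) was 3.82 against A and 0.98 against C, so the A mice were the low ones. Cyp3a11 and Cyp3a13, which respond to PXR, differed by -0.35 and -0.57.

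Erythroid markers were lower in B for 7 of 8 measured genes, with a median of -0.24 and 0 unadjusted p under 0.05. Klf1, the erythroid transcription factor, differed by -0.35 ± 0.20, with all 3 B mice below the other 6, as for 0.967% of all genes. Heat shock and unfolded protein genes averaged 10.13, 9.50 and 10.48 in B1, B2 and B3, against 9.64 to 10.04 in A and C, so B2 was the lowest and B3 the highest of the 9 mice. Clec2h, a C-type lectin-like gene, was at 5.56 and 6.02 in A2 and A3 and between 3.12 and 3.79 in the other 7 mice, A1 included.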
